A study of Mus musculus with 8 samples.

Results

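The ligands and receptors of the interleukin-6 (IL-6) family were followed in mouse mammary tumours that carried either floxed or wild-type Stat3. The members were 10 genes: the ligands Il6, Lif, Osm and Il11, and the receptor chains Il6ra, Il6st, Lifr, Osmr, Il11ra1 and Lepr. They were found as every non-control probe whose gene name on the array is 1 of these symbols. This gave 17 probes of 41174 on the array, for 9 of the 10 genes. No probe carried the name Lif, so Lif was not measured under its own name. Probes whose tumour signal stood clear of background in 3 or more of the 8 samples were kept: 16 of the 17 member probes, and 31315 of all probes.

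IL-6 family cytokines bind a receptor chain specific to the ligand and then recruit the shared chain gp130, encoded by Il6st, or a related signalling chain. Leukaemia inhibitory factor (LIF) signals through Lifr with gp130, and oncostatin M (OSM) in the mouse mainly through Osmr with gp130. The chains carry JAK kinases, which phosphorylate STAT3, and STAT3 then enters the nucleus and turns on genes that include Socs3, Cebpd and acute phase genes. In the mammary gland this pathway is best known for its part in involution, when LIF and then OSM act after weaning. The leptin receptor Lepr is a relative of gp130 that also activates STAT3.

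The comparison holds 8 arrays from virgin female mice carrying MMTV-NIC, a transgene that makes activated Neu (ErbB2) and Cre recombinase from a shared transcript under the MMTV promoter, which is active in mammary epithelium. One group, of strain Stat3flx/flx/MMTV-NIC, has both Stat3 alleles floxed and consists of 5 individual tumours. The other, of strain Stat3wt/wt/MMTV-NIC, consists of 3 pools of 5 tumours each, so a pool averages over differences that a single tumour keeps. Pooling goes wholly with genotype, so a difference due to pooling cannot be told apart from one due to genotype. All tumours were collected 6 weeks after they could first be felt; the age of the mice is not stated in the labels. With Cre under this promoter, stromal and immune cells in the same tumour are presumed to keep Stat3, which was not measured here. The RNA is of whole tumour tissue. In such bulk samples fewer cells of a type and less RNA per cell cannot be told apart.

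Each array set tumour RNA, in Cy5, against the same Stratagene mouse reference RNA, in Cy3. A value below is the log2 ratio of tumour over reference, 0 meaning equal signal, unless it is called a difference. A difference is the mean of the floxed tumours minus the mean of the wild-type pools, on the same log2 scale. Ratios of different probes say nothing of which transcript is more abundant. The median tumour signal per array lay between 642 and 891, against local background medians of 47 to 58. All 7 luminal epithelial markers on the array (among them Krt8, Krt18, Cdh1 and Epcam) were above background on all arrays. The targeted gene separated the groups with 1 of its 2 probes: the first Stat3 probe lay between -1.48 and -1.12 in floxed tumours and between 0.12 and 1.27 in pools (difference -2.05, limma adjusted p = 0.148). The second Stat3 probe overlapped between the groups (difference -0.60, limma adjusted p = 0.922; 0.22 on the slide of pool 1), and the sources used here do not say whether either probe lies within the floxed exons.

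The clearest separation among the members was that of Osmr, the specific receptor chain for OSM, and its probes are shown first. Coordinates are those of the array files, on mouse build mm7; no annotation of that build was used here, so exon, intron or UTR is not stated. Osmr probe 1 lies at chr15:6640433-6640492 and Osmr probe 2 at chr15:6641790-6641849, both on the minus strand. The first 30 of the 60 bases of each are given, 5′ to 3′, because the text rests on these probes being separate measurements.
Osmr probe 1: attgcagatgctctgtttacattttcttgt
Osmr probe 2: ttattgcagtagcttgacatagggtgtaca
The pair shared no run of bases longer than 10, the longest run shared by any pair of probes of the same member gene.

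Osmr probe 1 read -2.18, -2.31, -1.81, -2.78 and -2.09 in floxed tumours 1 to 5 and -1.35, -1.03 and 0.38 in wild-type pools 1 to 3. All 5 floxed tumours lay below all 3 pools, and pool 3 was the sole sample above the reference. The means were -2.23 ± 0.36 (SD, n = 5) and -0.67 ± 0.92 (SD, n = 3), a 2.96-fold lower level in floxed tumours. Osmr probe 2 read -1.66, -2.04, -1.50, -2.52 and -1.85 in floxed tumours 1 to 5 and -1.17, -0.95 and -0.20 in pools 1 to 3. The groups again did not overlap, and the samples fell in nearly the same order (Spearman's rho of 0.976 between the probes). The means were -1.92 ± 0.39 (SD, n = 5) and -0.77 ± 0.51 (SD, n = 3), a 2.21-fold lower level in floxed tumours. Across the 8 arrays the probes followed each other with a Pearson correlation of 0.978.

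The Osmr difference was -1.57 for probe 1 (SE 0.38, 95% interval -2.41 to -0.72) and -1.14 for probe 2 (SE 0.28, 95% interval -1.78 to -0.50). In limma's fit across 31302 probes the unadjusted p was 0.00235 and 0.00282, and the adjusted p was 0.922 for both, so neither passed the threshold of 0.05 after adjustment. By unadjusted p the probes ranked 53 and 66, and 0.211% of all probes had a p at most that of probe 2. The exact two-sided permutation p was 0.0179 for each, the smallest that 56 splits of 5 and 3 samples allow. Across all probes, 0 passed limma's adjusted threshold (0% of 31302), while 1506 had an unadjusted p under 0.05 (4.81%), 581 of them higher in floxed tumours (1.86%) and 925 lower (2.96%). The groups did not overlap at 930 probes (2.97%), of which 597 were lower (1.91%) and 333 higher (1.06%). Of the 16 kept member probes, 2 had an unadjusted p under 0.05, both of Osmr, and the groups did not overlap at the same 2.

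**Figure D1:**
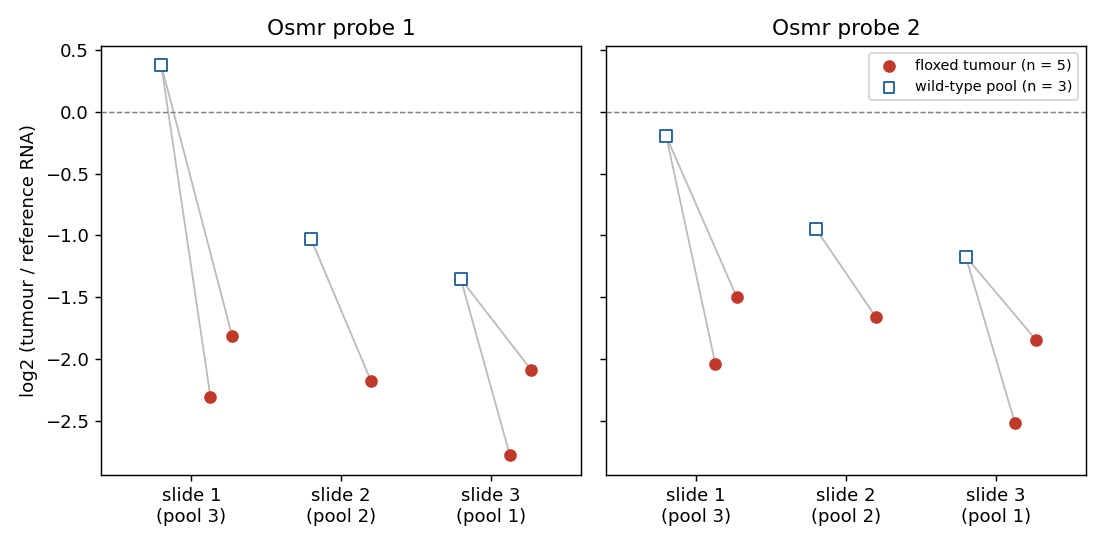
The log2 ratio of tumour over reference for both Osmr probes, with each floxed tumour (filled circle) joined by a line to the wild-type pool (open square) on the same slide. Every floxed tumour sits below the pool of its own slide, as it must where the groups do not overlap. The gap is widest on slide 1, which holds pool 3 at 0.38 for probe 1.

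The arrays lay on 3 slides that each held both groups. Slide 1 held floxed tumours 2 and 3 with pool 3, and slide 2 held floxed tumour 1 with pool 2. Slide 3 held floxed tumours 4 and 5 with pool 1. The Osmr difference was negative on each slide, which followed from the groups not overlapping and is no further check. Within the slide of pool 3 it was -2.44 for probe 1 and -1.58 for probe 2, within that of pool 2 -1.15 and -0.71, and within that of pool 1 -1.08 and -1.01. With slide as a block in limma's fit the differences were -1.59 and -1.14 (adjusted p = 0.606 for both). Pool 3 set much of the size: without it the differences were -1.04 and -0.86 (limma adjusted p = 1 for both). Pool 3 also had the highest median of the 5 basal epithelial markers (1.35, against -1.07 to 0.05 in the floxed tumours and -0.79 and -0.47 in the other pools) and of the 3 measured neutrophil markers (0.80, against -1.92 to 0.49 in the other samples), each marker taken relative to its mean in the pools. It was highest for luminal (0.34, next floxed tumour 1 at 0.29) and endothelial markers (0.57, next floxed tumour 2 at 0.42) too. Another sample was highest at the remaining marker lists. Single markers differed: Acta2, a basal marker, was lowest in pool 3 (-0.97). S100a9, a neutrophil marker, was highest in floxed tumour 2 (4.97, against 3.76 in pool 3). The part of these cells in the Osmr values was not tested.

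The tumour channel alone gave Osmr differences of -1.59 and -1.11. The reference channel varied little at these probes, with an SD over the 8 arrays of 0.12 and 0.05 on the log2 scale against 0.99 and 0.68 in the tumour channel. Osmr probe 1 was bright, with a raw tumour signal between 4190 and 38900, and probe 2 between 535 and 2210, against a local background of at most 72. Neither was saturated on any array.

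**Figure D2:**
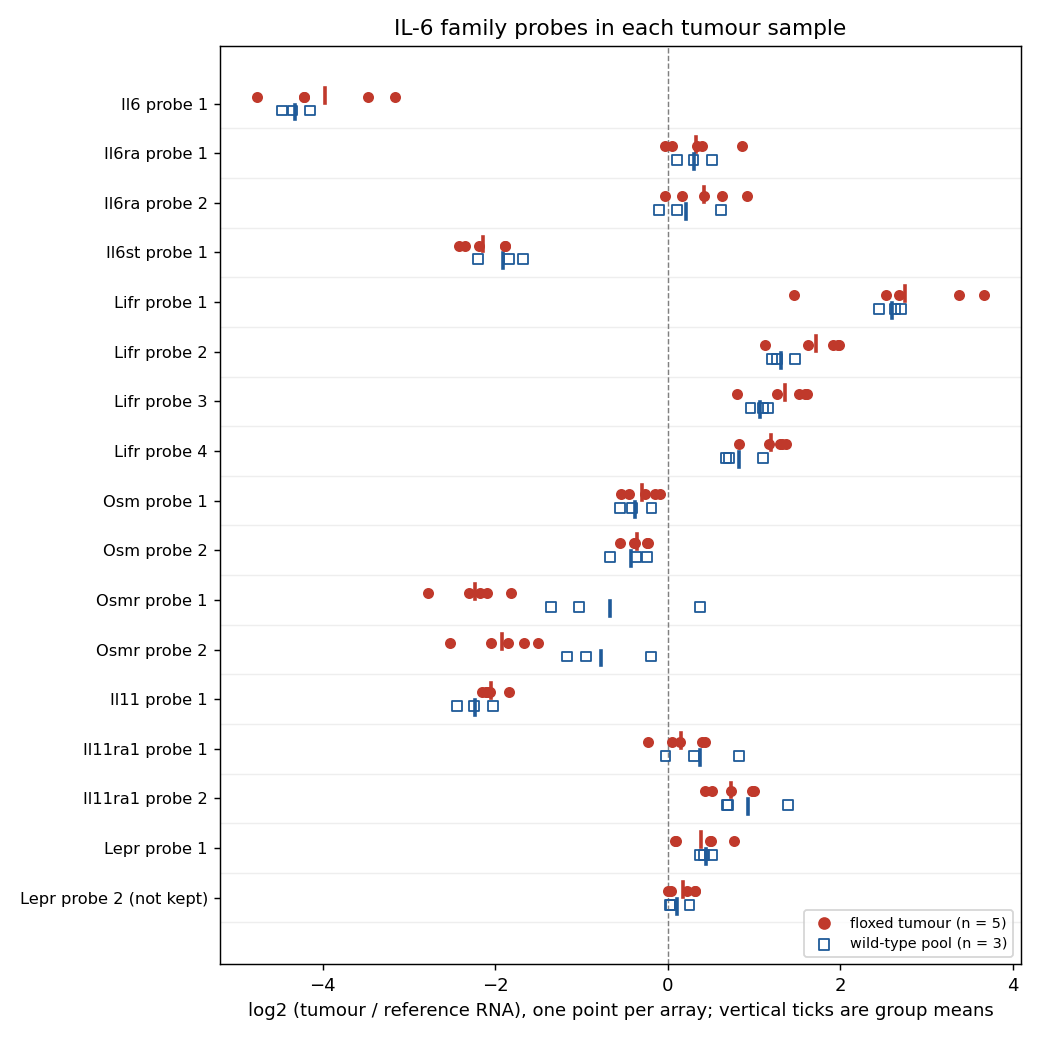
The log2 ratio of tumour over reference for all 17 member probes, with 1 point per array (filled circles, 5 floxed tumours; open squares, 3 wild-type pools) and a vertical tick at each group mean. The groups separate at the Osmr probes and overlap at the others, and Il6, Il11, Il6st and Osm lie below 0 in every sample.

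The ligands showed no separation between the groups. Il6, the founding cytokine, was measured with 10 spots at chr5:29052734-29052793. Its ratio was -3.16, -3.47, -4.22, -4.76 and -4.22 in floxed tumours 1 to 5 and -4.47, -4.14 and -4.35 in pools 1 to 3. Floxed tumours 1 and 2 were the highest and floxed tumour 4 the lowest, so the pools lay inside the floxed range. The difference was 0.35 (SE 0.34, 95% interval -0.40 to 1.11, limma adjusted p = 0.927, exact permutation p = 0.393). The transcript was dim in the tumours: the raw tumour signal lay between 103 and 370, against 4210 to 4720 in the reference, and in floxed tumour 3 it was not well above background. The SD among the spots of 1 array was 0.07 to 0.24, less than the SD of 0.64 among floxed tumours.

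Osm, the ligand of Osmr, had 2 probes, at chr11:4192146-4192205 and chr11:4191500-4191559. Probe 1 lay between -0.54 and -0.09 in floxed tumours and between -0.55 and -0.19 in pools. Its difference was 0.084 (SE 0.16, 95% interval -0.28 to 0.45) and that of probe 2 was 0.066 (SE 0.15, 95% interval -0.28 to 0.41). The ligand's groups thus overlapped almost fully where those of its receptor chain did not, and over the 8 arrays Osm and Osmr had a Pearson correlation of -0.169. Osm was also dim, with a raw tumour signal of 162 to 323 for probe 1 and 111 to 171 for probe 2, and probe 2 was not well above background in floxed tumour 4 and pool 1.

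Il11, which signals through Il11ra1 and gp130, lay between -2.15 and -1.84 in floxed tumours and between -2.45 and -2.02 in pools. The difference was 0.19 (SE 0.15, 95% interval -0.15 to 0.53, limma adjusted p = 0.922, exact permutation p = 0.179). Lif, a major ligand of the involuting gland, has no value under its symbol. A clone probe at chr11:4226323-4226382, which the array describes as leukaemia inhibitory factor but which the rule does not include, lay between 0.02 and 0.24 in floxed tumours and between -0.02 and 0.26 in pools (difference 0.020, SE 0.14, exact permutation p = 0.75).

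Among the receptor chains that confer ligand specificity, Lifr had the most probes. Lifr probe 1 spans chr15:7011508-7012314 in the array's coordinates, 807 bases for a 60-base probe, and probe 2 lies at chr15:7017869-7017928, both on the plus strand. They are shown because probe 1 varied more among floxed tumours than the others.
Lifr probe 1: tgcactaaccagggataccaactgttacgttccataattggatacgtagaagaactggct
Lifr probe 2: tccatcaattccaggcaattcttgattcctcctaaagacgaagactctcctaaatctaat
Lifr probe 1 read 2.69, 1.47, 3.67, 2.53 and 3.38 in floxed tumours 1 to 5 and 2.45, 2.70 and 2.64 in pools 1 to 3. Lifr probe 2 read 1.97, 1.12, 1.99, 1.62 and 1.92 in the same floxed tumours and 1.26, 1.48 and 1.21 in the pools. Floxed tumour 2 was the lowest floxed tumour at all 4 probes, and for probe 2 the other 4 floxed tumours lay above all 3 pools.

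The Lifr differences were 0.15 (probe 1), 0.41 (probe 2), 0.29 (probe 3) and 0.37 (probe 4). Their 95% intervals all held 0 (-0.82 to 1.12, -0.08 to 0.90, -0.18 to 0.75 and -0.03 to 0.77), the limma unadjusted p was 0.737, 0.094, 0.194 and 0.0677, and the adjusted p was 0.922 or above. Probes 2, 3 and 4 correlated with each other at 0.83 to 0.955 over the 8 arrays, and probe 1 with them at 0.627 to 0.819. The SD among floxed tumours was 0.86 at probe 1 and 0.22 to 0.37 at the other 3. Floxed tumour 2 weighed on these values: without it the differences of probes 1 to 4 were 0.47, 0.56, 0.43 and 0.46, and 5 member probes in place of 2 had an unadjusted p under 0.05 (limma adjusted p = 0.888 for all 4 Lifr probes), beside 5.36% of all probes in that fit. That tumour also had the highest median of the 7 fibroblast markers (2.42, against -0.69 to 0.38 in the other 7 samples), and the part of those cells was not tested.

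**Figure D3:**
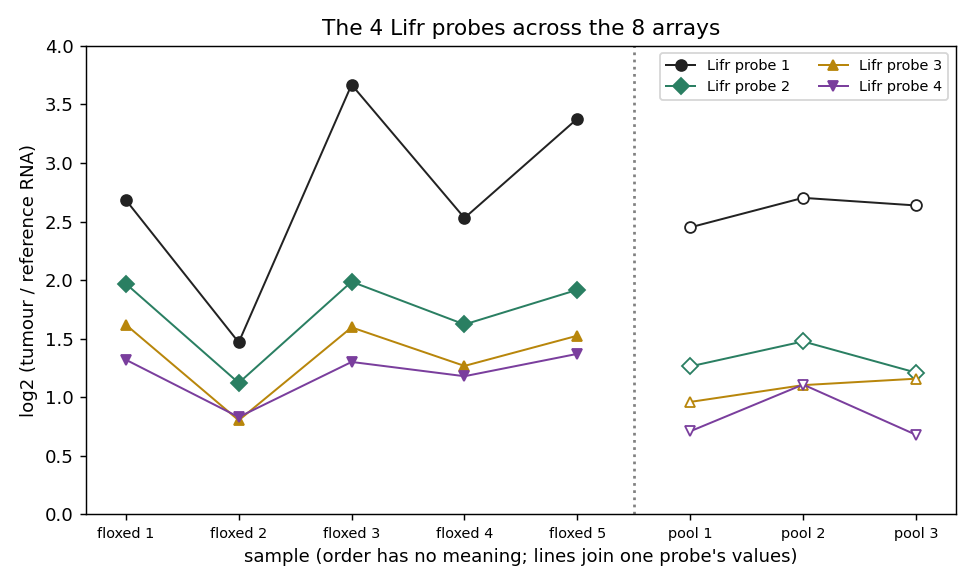
The log2 ratio of tumour over reference for the 4 Lifr probes in each sample, floxed tumours with filled and wild-type pools with open markers; lines join the values of a probe and have no meaning as a series. Floxed tumour 2 is the lowest floxed tumour at every probe, and probe 1 spreads from 1.47 to 3.67 among the floxed tumours.

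Il6ra, the IL-6-binding chain, had 2 probes in different places of the gene, at chr3:90003321-90003380 and chr3:90013069-90013128 on the minus strand. They are printed because their group differences were unequal although they correlated at 0.855 over the 8 arrays.
Il6ra probe 1: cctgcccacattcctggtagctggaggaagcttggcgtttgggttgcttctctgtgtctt
Il6ra probe 2: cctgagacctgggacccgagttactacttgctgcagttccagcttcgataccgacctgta
Probe 1 lay between -0.04 and 0.87 in floxed tumours and between 0.11 and 0.52 in pools, a difference of 0.014 (SE 0.22, 95% interval -0.48 to 0.51). Probe 2 lay between -0.03 and 0.92 in floxed tumours and between -0.10 and 0.62 in pools, a difference of 0.22 (SE 0.25, 95% interval -0.34 to 0.78). Floxed tumour 1 was the highest sample at both. The sign of the probe 1 difference turned with the normalization (-0.011 with scaling between arrays and -0.035 in the tumour channel alone).

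Il11ra1, the IL-11-binding chain, was measured at chr4:41907660-41907719 and chr4:41907584-41907643. Probe 1 lay between -0.23 and 0.44 in floxed tumours and between -0.03 and 0.83 in pools. Probe 2 lay between 0.43 and 1.01 in floxed tumours and between 0.69 and 1.40 in pools. Pool 3 was the highest sample at both. The differences were -0.21 (SE 0.23) and -0.20 (SE 0.22), with limma adjusted p of 0.935 and 0.938, and without pool 3 they turned to 0.019 and 0.039. The mouse genome holds a near-identical copy of this gene, Il11ra2, and these values may hold signal of both.

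Il6st, which encodes the shared chain gp130, was measured with 1 probe at chr13:109662276-109662335. It read -2.42, -1.89, -2.35, -2.18 and -1.89 in floxed tumours 1 to 5 and -2.20, -1.84 and -1.68 in pools 1 to 3. Pools 2 and 3 were the 2 highest samples, while pool 1 lay within the floxed range. The difference was -0.24 (SE 0.19, 95% interval -0.67 to 0.19, limma adjusted p = 0.922, exact permutation p = 0.214), and on the slide of pool 1 it was 0.16. Lepr, the leptin receptor, was dim. Its first probe, at chr4:101189318-101189377, had a raw tumour signal of 89.9 to 208 and lay between 0.09 and 0.77 in floxed tumours and between 0.38 and 0.52 in pools (difference -0.049, SE 0.19). The sign of that difference turned in the tumour channel alone (0.079) and in values from the authors' deposited table (0.029). Lepr probe 2 was above background in 2 of 5 floxed tumours and in 0 of 3 pools, was not kept, and has no fold.

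**Figure D4:**
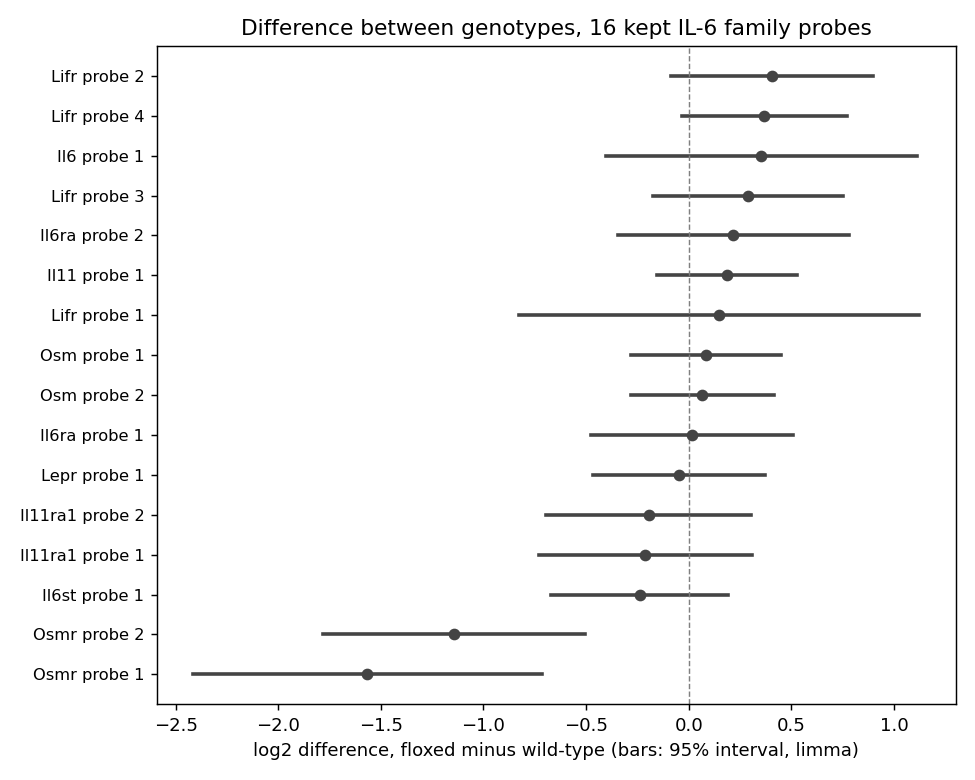
The difference in log2 ratio, floxed tumours minus wild-type pools, for the 16 kept member probes, ordered by size, with the 95% interval of limma's fit as bars. The intervals of the Osmr probes lie below 0 (-2.41 to -0.72 and -1.78 to -0.50), and those of the other 14 probes include 0.

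Leaving out Osmr, the differences of the 14 other kept probes ran from -0.24 (Il6st) to 0.41 (Lifr probe 2), and their lowest unadjusted p in limma's fit was 0.0677. Of all 16, 10 were above 0 and 6 below, with a median of 0.075, while the median over 21565 genes was -0.014. Because the Osmr and Lifr chains each pair with gp130 at the membrane, Osmr ratios were also compared with those of Il6st and Lifr within samples. Osmr probe 1 minus Il6st was 0.24, -0.42, 0.53, -0.60 and -0.20 in floxed tumours 1 to 5 and 0.85, 0.81 and 2.05 in pools 1 to 3. The groups did not overlap in this balance, with a difference of -1.33 (exact permutation p = 0.0179), and it was -0.90 with Osmr probe 2 (exact permutation p = 0.0357). Osmr probe 1 minus Lifr probe 1 differed by -1.71 (exact permutation p = 0.0536), since floxed tumour 2, low in Lifr, lay at -3.78 beside pool 1 at -3.80 and pool 2 at -3.73. The 4 such balances share their Osmr values and are not independent, and after Benjamini-Hochberg adjustment over the 4 each exact permutation p was 0.0714. Osmr already separated the groups, while Il6st and Lifr probe 1 differed by -0.24 and 0.15. The balances thus largely restate the Osmr difference and are no separate test.

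The genes most like Osmr in pattern over the 8 arrays, among 21452 genes, were Adssl1 (Pearson r = 0.976), Card14 (r = 0.975) and Saa2 (r = 0.971), the last encoding an acute phase serum amyloid A. Il6st, next after Osmr in unadjusted p when each gene is read by its brightest probe, was most like Cnnm2 (r = 0.949), Mgarp (r = 0.944) and Smox (r = 0.936). With 8 arrays and pool 3 far from the others, such correlations are a description of these samples.

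The upstream sequences of the members come from RefSeq on build GRCm38.p6, a different build from that of the probes, and 9 of the 10 genes matched, with 13 windows. Each window is the 250 bases before a gene's start. They were searched on both strands for TTCNNNGAA (the STAT motif), TTGNGCAA (C/EBP), TGANTCA (AP-1) and, for NF-kB, GGG and TTCC with 3 bases between them. The STAT motif was in 0 of the 13 member windows, against 7.02% of all 32851 windows of the same length. The C/EBP motif was in Il6 (2.61% of all windows), the AP-1 motif in Il6, Il11 and Lif (6.75%), and the NF-kB motif in Il6 and Lepr (4.65%). The Osmr window, shown because Osmr had the largest difference among the members, is chr15:6874314-6874563 on the minus strand and held none of the 4 motifs. The Il6 window, chr5:30012864-30013113 on the plus strand, is shown beside it because it held 3 of them, in capitals.
Osmr, 250 bases upstream: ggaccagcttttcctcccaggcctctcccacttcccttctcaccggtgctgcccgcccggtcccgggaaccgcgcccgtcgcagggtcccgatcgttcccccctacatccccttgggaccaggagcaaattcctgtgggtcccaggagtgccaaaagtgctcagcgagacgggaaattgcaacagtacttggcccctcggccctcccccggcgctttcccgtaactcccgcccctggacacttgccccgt
Il6, 250 bases upstream: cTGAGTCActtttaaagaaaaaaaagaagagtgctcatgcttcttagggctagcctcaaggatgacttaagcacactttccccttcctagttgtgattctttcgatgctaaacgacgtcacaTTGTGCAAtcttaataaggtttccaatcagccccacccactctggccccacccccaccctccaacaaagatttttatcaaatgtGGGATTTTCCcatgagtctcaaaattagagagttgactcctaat
The Osmr window was GC-rich (66% G or C) and the Il6 window was not (42.8%), against a median of 52.4% over all windows. A match describes letters only, and no match says only that these letters are not in this window.

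The genes that act around the members were read in the same fit, each by its brightest kept probe. Of 9 other ligands of the family, 7 were measured, 5 with a difference above 0 and 2 below, and 0 passed limma's adjusted threshold or had an unadjusted p under 0.05. Among them Cntf, which encodes ciliary neurotrophic factor, had a difference of 0.17 (SE 0.14) and Ebi3, a subunit of IL-27, a difference of 0.13 (SE 0.19), both with overlapping groups. Of 8 other receptor chains, 6 were measured, with 3 above and 3 below 0. Cntfr, the binding chain for ciliary neurotrophic factor, read 0.02, 1.14, 0.76, 0.76 and 0.73 in floxed tumours 1 to 5 and 1.20, 1.32 and 1.62 in pools 1 to 3. The groups did not overlap, although floxed tumour 2 came close to pool 1, and the difference was -0.70 (SE 0.24, limma adjusted p = 0.922, exact permutation p = 0.0536). Il12rb1 and Csf3r differed by 0.18 and 0.20, with overlapping groups.

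The shared signalling chain of JAK kinases, STATs, SOCS inhibitors, phosphatases and the Ras arm had all 21 listed genes measured, 13 above 0 and 8 below, with a median difference of 0.070. Stat3 was lowest (-2.05). The feedback inhibitor Socs1 differed by 0.33 (SE 0.21) and Socs3, the STAT3-induced inhibitor that binds gp130, by -0.17 (SE 0.16; named after its value was seen). None of the 21 passed limma's adjusted threshold, and 2 had an unadjusted p under 0.05. Of these, 1 was lower (Stat3) and 1 higher, beside 2.96% and 1.86% of all probes in those directions. For the 4 genes that shed soluble receptors or control that shedding, the groups overlapped. Adam17, the main sheddase of Il6ra, differed by -0.14 (SE 0.14), Rhbdf2 by 0.19 (SE 0.24) and Adam10 by 0.30 (SE 0.41). With errors of this size, the size of any change is uncertain.

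Genes that the pathway is known to induce had the median farthest from 0 among the 5 pathway lists. Of 27 listed response genes 26 were measured, 19 with a difference below 0 and 7 above, with a median difference of -0.58 beside -0.014 over all genes. None passed limma's adjusted threshold, and 9 had an unadjusted p under 0.05, all lower in floxed tumours, beside 2.96% of all probes in that direction. The groups did not overlap at 6 of them, all lower, beside 1.91% of all probes. The list was drawn up with earlier results of these data known and is no independent evidence of a direction. Pool 3 had the highest basal, neutrophil, luminal and endothelial marker medians. Without pool 3 the response median was -0.12, and 6 genes had an unadjusted p under 0.05 and a lower value, beside 1.24% of all probes in that fit. With only the probes above background on all 8 arrays, 23 response genes were left and their median was -0.27. Of these, 7 had an unadjusted p under 0.05 and a lower value, beside 2.91% of all probes in that fit. Some marker lists of other cell types had medians farther from 0: the median difference was -0.79 for basal epithelium (4 of 5 lower), -0.72 for neutrophils (3 of 3 lower) and 0.84 for skeletal muscle (5 of 5 higher). The muscle median was high in floxed tumours 5 (2.95) and 2 (1.02). It lay between -0.23 and 0.08 in the other floxed tumours and between -0.07 and 0.07 in pools. The part of these cell types in the response genes was not tested.

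Cebpd, which encodes the transcription factor C/EBP delta of the involuting gland, read -3.66, -3.06, -3.86, -3.40 and -3.36 in floxed tumours 1 to 5 and -1.88, -1.28 and -0.34 in pools 1 to 3. Every floxed tumour lay more than 1 log2 unit below every pool (difference -2.30, SE 0.33, limma adjusted p = 0.238, exact permutation p = 0.0179). Saa2 read -0.44, -0.51, -0.13, -0.57 and -0.62 in floxed tumours and 1.61, 1.93 and 5.03 in pools. Its probe was well above background in 3 of 3 pools and 3 of 5 floxed tumours, so the low values lie near the limit of detection and the size of the difference is uncertain. Pool 3 stood far above the other pools (difference -3.31, SE 0.66, limma adjusted p = 0.901, exact permutation p = 0.0179). Without pool 3 the Saa2 difference was -2.23, with a limma adjusted p of 0.0369; the filter of 3 arrays could be met by the pools alone, and the probe is not tested where all 8 arrays must be above background. Bcl3, a nuclear cofactor of NF-kB, differed by -1.30 (SE 0.29, limma adjusted p = 0.922, exact permutation p = 0.0179), again without overlap. The other 3 genes without overlap, named after their values were seen, were Lrg1 (-3.14), Pik3r1 (-1.09) and Saa1 (-2.09). Members of the list at the other end were Myc (0.60), Timp1 (0.43) and Lcn2 (0.38), also named after their values were seen, with overlapping groups.

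**Figure D5:**
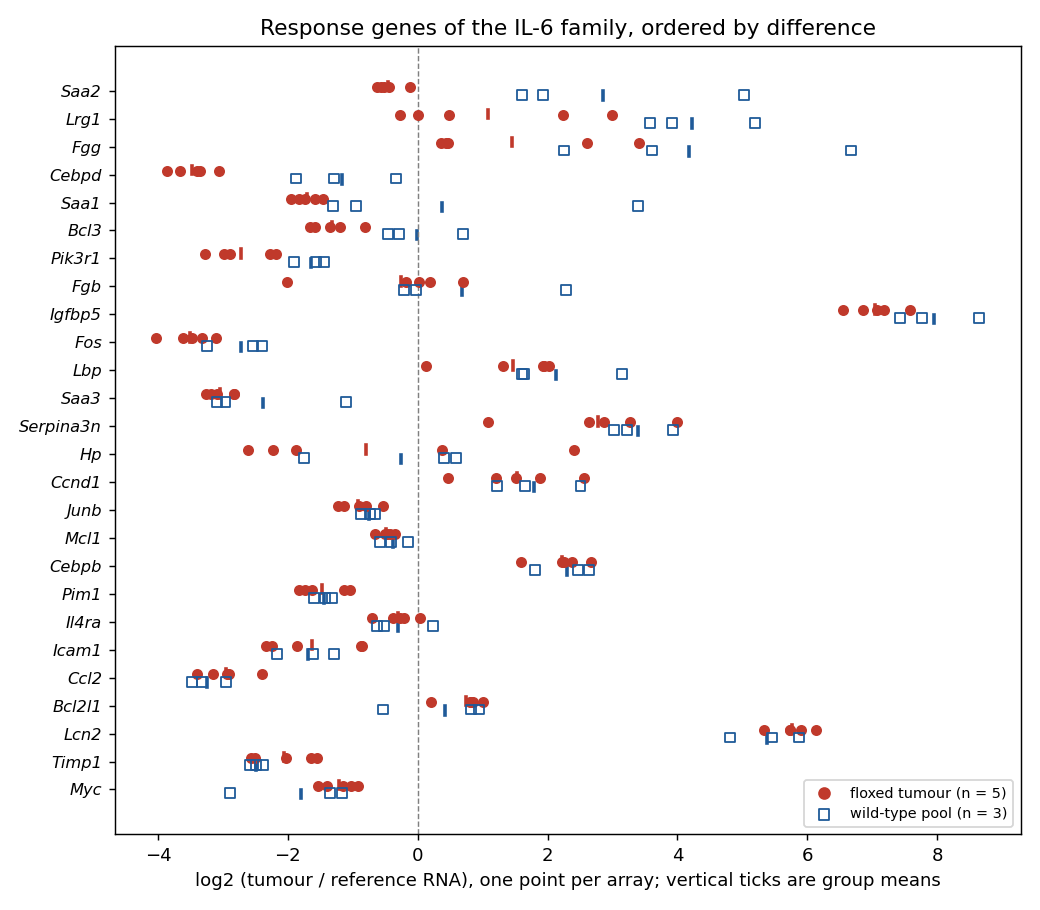
The log2 ratio of tumour over reference for the 26 measured response genes, ordered by difference, with 1 point per array (filled circles, 5 floxed tumours; open squares, 3 wild-type pools) and a vertical tick at each group mean. The groups separate at Saa2, Lrg1, Cebpd, Saa1, Bcl3 and Pik3r1, while most genes in the lower rows overlap; pool 3 is the far point at Saa1 (3.39) and Saa2 (5.03).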

How the data were processed

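RNA of 5 floxed tumours and 3 wild-type pools was measured on two-colour Agilent arrays (design 014868), 1 array per sample. Per the file headers, the deposited spot intensity values came from Agilent Feature Extraction 9.5.3.1 (protocol GE2-v5_95_Feb07) and were not normalized, apart from its processed signals. The authors' deposited table holds log2 values; its making is described, in the submitters' processing notes, by the names RMA and Agilent Feature Extraction alone. Its columns followed their own array's ratio (r from 0.991 to 0.996, slope from 0.984 to 1.26; column medians from 0.00215 to 0.0105), which settled direction and approximate scale; its normalization and centring are unknown.

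With limma 3.58.1 in R 4.3.3, background was corrected by normexp (offset 50) and ratios by loess within arrays, control spots at weight 0. Outlier spots were left out, and the spots of a probe were averaged. Groups were compared by limma's moderated statistics (two-sided), adjusting by Benjamini-Hochberg across the kept probes, and single values by exact permutation over 56 splits. Tumour RNA was in Cy5 throughout, so dye effects that vary between arrays would not cancel. The p-values rest on the spread among these 8 samples alone. Both tests treat single tumours and pools alike, although a pool averages over 5 tumours. The fit was tested on simulated data. The rule for named genes gave all members, Stat3, up to 3 genes of smallest p per list and 3 nearest patterns for the 2 member genes of smallest p. Some genes that the rule gave are not reported here. Members, lists and rules were chosen with earlier results of these data known. For list genes, symbols came from the accession or an identical current symbol where possible, otherwise from the file.

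Other cell types were read through marker lists: basal epithelial (5 measured), macrophage (7), neutrophil (3 of 7 listed), T cell (6), endothelial (6), fibroblast (7), adipocyte (6) and skeletal muscle (5), with 0 genes in any of them past limma's adjusted threshold and 2 (Trp63 and Cd14, both lower) at an unadjusted p under 0.05. Over all probes 4.81% had an unadjusted p under 0.05. The Trp63 probe was well above background in 3 of the 5 floxed tumours. Median differences were 0.13 for macrophage, 0.058 for T cell, 0.13 for endothelial, 0.16 for fibroblast, -0.079 for adipocyte and -0.13 for luminal markers. Alternatives were other background corrections and normalizations, filters, probe rules, slide as a block, variance models, leaving out each sample, and the authors' own values.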

Additional observations from a re-analysis of the deposited data

How the results depend on the processing

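The Osmr differences stayed below 0 under every alternative run, from -2.44 to -1.04 for probe 1 and from -1.58 to -0.71 for probe 2, with limma adjusted p from 0.417 to 1 and from 0.436 to 1. Within a slide or with a sample left out, that sign followed from the groups not overlapping. No member probe passed limma's adjusted threshold under any of them. The number of all probes past that threshold was 0, but 1 with the processed signals, with the brightest probe per gene and with the mean of a gene's probes, and from 0 to 2 with a sample left out. Member probes at an unadjusted p under 0.05 numbered 1 with either gene rule, beside 4.97% (brightest probe) and 4.85% (mean) of all genes. They numbered 3 with no filter, beside 4.62% of all probes. With a sample left out they numbered from 2 to 5, beside 2.11% to 9.21% of all probes in those fits. The median of the other receptor chains was 0.19 with the processed signals. That of the response genes was -0.99 on the slide of pool 3 and -0.16 on that of pool 1, -0.27 with only the probes above background on all 8 arrays, and from -0.72 to -0.12 with a sample left out. Il6st and Stat3 probe 2 turned to 0.16 and 0.22 on the slide of pool 1. Other member probes also changed sign within a slide. Among them were the Il11ra1 probes (0.46 and 0.29) and Osm probe 2 (-0.15) on the slide of pool 2. Floxed tumour 1 was the only floxed tumour on that slide. Il6ra probe 1 (-0.29) and Lepr probe 1 (0.26) did so on the slide of pool 3. On the slide of pool 3 shared signalling had a median of -0.19 and the shedding genes -0.17. On that of pool 2 they had -0.16 and -0.21, and on that of pool 1 shared signalling had 0.29. The cause was not tested.

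Some signs turned. Il6ra probe 1 was -0.011 with scaling between arrays and -0.035 in the tumour channel, and Lepr probe 1 was 0.079 in the tumour channel and 0.029 in the authors' table. With a sample left out, values ran from -0.12 to 0.12 for Il6ra probe 1, from -0.14 to 0.026 for Lepr probe 1, from -0.081 to 0.47 for Lifr probe 1, from -0.0015 to 0.18 and from -0.056 to 0.16 for the Osm probes, from -0.41 to 0.019 and from -0.32 to 0.039 for the Il11ra1 probes, from -0.049 to 0.36 for Csf3r, from -0.015 to 0.30 for Rhbdf2 and from -0.32 to 0.77 for Adam10. The Il11ra1 and Adam10 signs turned without pool 3, those of Osm and Rhbdf2 without pool 1, and that of Csf3r without floxed tumour 2. Stat3 probe 1 reached a limma adjusted p of 0.0386 without pool 1. No paired analysis was possible because the labels pair no floxed tumour with a pool. The slide, which held both groups, was used as the block instead. Dim tumour signal limits Il6, Osm and Lepr, and dim reference signal also limits Lepr.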
